A study of Mus musculus with 6 samples.

Results

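Blood vessels of the brain carry the genes described here: 42 genes out of the 23282 entries in each count table, 30 of them markers of endothelial cells, 8 markers of pericytes and arterial smooth muscle, and 4 genes of inducible adhesion molecules. The members were taken by symbol from a list of vessel genes that was drawn up with earlier results of these data known, so shares of the members are given as descriptions. Endothelial cells line the capillaries of the brain and form the blood-brain barrier: tight junctions seal the gaps between them, few vesicles cross them, and transporters move nutrients, lipids and hormones. Pericytes wrap the capillaries and help to keep this barrier closed, and smooth muscle cells, which are counted with the pericytes as mural cells, set the width of the arteries. In inflammation the endothelium displays selectins and immunoglobulin-like adhesion molecules, through which leukocytes roll, stick and leave the blood.

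The samples were 6 libraries of forebrain RNA from male wild-type C57BL/6J mice, which were 8 to 10 weeks old. A normal chow diet (NCD) was given to the mice of 3 libraries and a high-fat diet (HFD), with 60 kcal% from fat, to those of the other 3, for 10 days. A forebrain hemisphere without the olfactory bulb and the cerebellum was used, so vessel RNA was measured within RNA of the whole tissue, and in such bulk samples fewer cells of a type and less RNA per cell cannot be told apart. The labels do not state whether each library came from 1 mouse, and the p-values therefore measure the spread between libraries, which may in part be technical.

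The tables held between 6842785 and 9689372 counts per library. The vessel genes together took between 0.061 and 0.077 percent of the counts of a library, which are few reads: the mean count of a member ranged from 16.3 to 693, with a median of 77.8, where the median over all 13771 genes tested was 182. Levels are given below as CPM, the counts of a gene scaled by the size of its library after TMM normalization, and 3 counts, taken as the floor, stand for 0.316 to 0.432 CPM. Libraries differed also in RNA of other tissues, whose part in the levels of the vessel genes was not tested. Pituitary markers summed to 1277 CPM in HFD replicate 3 and to between 4.75 and 13.6 CPM in the other 5 libraries, and 1 of the 3 pituitary genes tested, Gh, had an unadjusted p under 0.05. Red blood cell genes, a measure of the blood left in the tissue, summed to 610, 738 and 661 CPM on NCD and to 990, 762 and 1190 CPM on HFD. Liver markers summed to 305, 342 and 309 CPM on NCD and to 306, 285 and 260 CPM on HFD. Among them, Alb was uneven also within a diet, at 13.5, 26.9 and 3.9 CPM on NCD and 2.02, 5.46 and 1.79 CPM on HFD.

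Vessel RNA was present in every library. The summed level of the 30 endothelial genes was 597, 554 and 522 CPM on NCD and 625, 587 and 526 CPM on HFD, and that of the 8 mural genes was 83.2, 83.8 and 89.2 CPM against 105, 96.5 and 83.9 CPM. Of the 42 members, 40 passed the filter on low counts. The other two, the selectins Sele and Selp, did not.

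Between the diets, most vessel genes did not differ beyond the spread of their libraries, and a handful passed a threshold without adjustment. An unadjusted p under 0.05 (edgeR quasi-likelihood test) was reached by 5 of the 40 members tested, or 12.5%, against 3.68% of all genes tested. Ly6a and Rgs5 were higher on HFD, and Mfsd2a, Sox17 and Icam1 were lower. Icam1 passed the filter on low counts through the NCD libraries, in which it was higher. With at least 10 counts asked of every library the count was 4 of 38, against 3.65% of all genes tested. Leaving out NCD replicate 1 gave a count of 3 (against 3.5% of all genes), as did leaving out HFD replicate 1 (against 5.46%). For higher levels the background was 1.71% and for lower levels 1.98%. After Benjamini-Hochberg adjustment over all genes tested, 0 members had an adjusted p under 0.05, the smallest edgeR adjusted p of a member was 0.979, and 0% of all genes passed. With DESeq2, 2 genes of all passed and 0 of them were members. A gene is said below to have reached the threshold where its unadjusted p was under 0.05, and its log2 fold change is given with its standard error (SE). In 7 members the 3 libraries of one diet all lay above the 3 of the other, which held for 8.81% of all genes tested. These were the 5 genes just named together with Cldn5 and Itm2a, so that 4 were higher on HFD (4.31% of all genes) and 3 lower (4.49%). The log2 fold change was above 0 in 24 members and below 0 in 16, where 50.6% of all genes were below 0, with a median of 0.07 and a range from -1.20 to 0.64, and the median of all genes tested was -0.00.

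**Figure D1:**
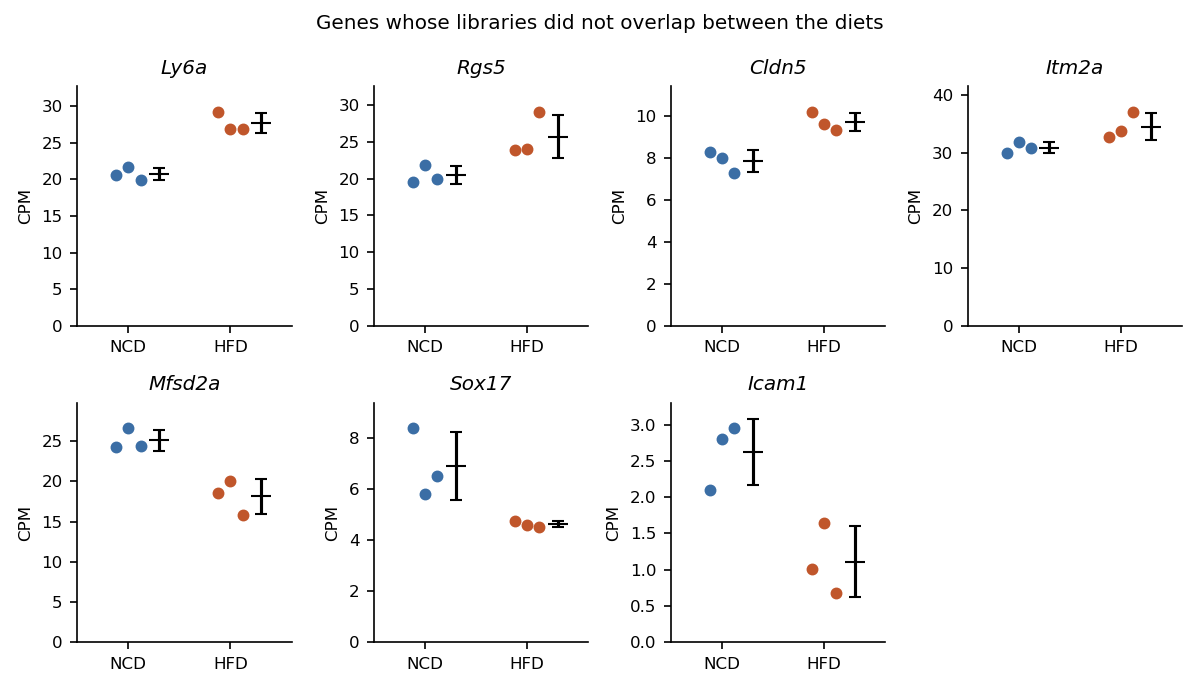
Normalised level (CPM, y axis from 0) of the 7 vessel genes whose NCD and HFD libraries did not overlap, 1 panel per gene with its own scale; points are the 3 libraries of each diet and bars are the mean and SD. Ly6a, Rgs5, Cldn5 and Itm2a lay higher on HFD, and Mfsd2a, Sox17 and Icam1 lower.

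The stretch before the start of transcription is shown for 4 of these 7 genes, to set the regulatory sequence of a gene beside its measured level. A promoter sequence from RefSeq (build GRCm38.p6) was found for 26 of the 42 members. Each line holds the 250 bases before the RefSeq start, written 5′ to 3′ on the strand of the gene, and capitals mark matches to any of 6 short motifs on either strand. The windows are chr4:122961189-122961438 on the minus strand for Mfsd2a, chr9:21015690-21015939 on the plus strand for Icam1, chr1:169655251-169655500 on the plus strand for Rgs5 and chr16:18776597-18776846 on the plus strand for Cldn5.
Mfsd2a: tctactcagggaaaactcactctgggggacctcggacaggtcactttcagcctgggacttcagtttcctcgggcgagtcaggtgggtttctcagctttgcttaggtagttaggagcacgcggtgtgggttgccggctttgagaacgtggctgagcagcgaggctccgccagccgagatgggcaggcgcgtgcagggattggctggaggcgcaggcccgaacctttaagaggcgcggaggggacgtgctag
Icam1: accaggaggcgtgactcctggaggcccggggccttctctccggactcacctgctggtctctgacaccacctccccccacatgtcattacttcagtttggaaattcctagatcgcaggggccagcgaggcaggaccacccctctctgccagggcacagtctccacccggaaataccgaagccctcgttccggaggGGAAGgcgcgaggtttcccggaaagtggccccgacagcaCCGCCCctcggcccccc
Rgs5: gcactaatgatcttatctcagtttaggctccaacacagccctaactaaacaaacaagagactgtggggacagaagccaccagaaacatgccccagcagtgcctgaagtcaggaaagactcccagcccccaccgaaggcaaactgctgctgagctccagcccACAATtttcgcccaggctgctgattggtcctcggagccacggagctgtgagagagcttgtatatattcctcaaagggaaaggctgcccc
Cldn5: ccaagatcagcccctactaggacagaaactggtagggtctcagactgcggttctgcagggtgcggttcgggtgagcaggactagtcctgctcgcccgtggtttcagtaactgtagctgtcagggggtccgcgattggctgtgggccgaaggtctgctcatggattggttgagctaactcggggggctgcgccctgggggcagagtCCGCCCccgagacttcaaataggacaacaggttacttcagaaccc
The motifs searched were GGAAG (the core of ETS factor sites), ACAAT (the core of SOX factor sites), TATAAA (the TATA box), GGGCGG (the GC box of Sp factors), the CArG box of serum response factor and the kappaB consensus of NF-kappaB. Each was counted by itself on both strands, so matches to different motifs may overlap. The CArG box was searched only as CC, 6 letters A or T, and GG, and the kappaB consensus only as a fixed pattern that begins with GGG. Variants of these patterns were not marked or counted. The Icam1 window holds tggaaattcc, which departs from the kappaB pattern only at its first letter. The Mfsd2a window held 0 matches. For Icam1 the RefSeq start lies 45 bases before the start of the gene in GENCODE, and for the other 3 genes the starts are the same. Distances are counted from the RefSeq start. In Icam1, GGAAG began 56 bases and a GC box 17 bases before the start, and in the 50 bases after the start, which were searched but are not printed, lay a TATAAA and another GC box. In Rgs5 an ACAAT began 89 bases before the start, and in Cldn5 a GC box began 45 bases before it.

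Over the 26 promoters of members, searched from 250 bases before to 50 after the start, GGAAG was found in 19, against 71.1% of 27025 mouse promoters, and ACAAT in 7, against 31.6%. The SOX core was in the promoters of Cd34, Edn1, Emcn, Rgs5, Robo4, Slco1a4 and Tek. TATAAA was in 6 (14.2% of all promoters), GGGCGG in 10 (35.9%), the kappaB consensus in 2, Flt1 and Kdr (4.35%), and the CArG box in 0 (1.57%). The Acta2 promoter holds ccctatatgg, which departs from the CArG pattern at a single letter and was not counted. Tagln and Myh11 had no promoter sequence here. A match is a string of letters and not a measured binding site.

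The surface proteins and receptors of the endothelium made up the largest group, with 17 members, all tested. Of these, 13 had a log2 fold change above 0 and 4 below, the median was 0.16, and 1 gene, Ly6a, had a p under 0.05. Ly6a encodes the GPI-anchored surface protein Sca-1, which brain endothelial cells carry in the mouse. Its gene lies at chr15:74994877-74998031 (GRCm38, minus strand). Ly6a stood at 20.6, 21.6 and 19.9 CPM on NCD and at 29.2, 26.8 and 26.9 CPM on HFD. All 3 HFD libraries were above all 3 NCD libraries, and the replicates of each diet were close to each other. The means were 20.7 ± 0.834 and 27.6 ± 1.37 CPM (SD, n = 3 each), a 1.33-fold higher level on HFD, with a log2 fold change of 0.42 (SE 0.13). By its unadjusted p it ranked 47 among the genes tested.

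Ly6a has a neighbour in the same family among the members. Ly6c1, another GPI-anchored antigen of brain endothelium, lies 46 kb away on the same chromosome, and it stood at 45.3, 34.6 and 40.5 CPM on NCD and 46.5, 42.5 and 43.6 CPM on HFD. The Ly6c1 libraries of the diets overlapped, with a log2 fold change of 0.14 (SE 0.13). Of the 75-base words in the last 500 bases of the Ly6a transcripts, 0.131% also occur in Ly6c1, while 18.2% of those of Ly6c1 occur in Ly6c2 or Ly6a. Reads were counted from unique and multiple alignments, so the Ly6c1 count may hold reads of these genes. The share of words is not a share of reads, and how much of the count is shared was not measured.

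Itm2a, a membrane protein of endothelial and some immune cells whose gene lies at chrX:107397099-107403376 (minus strand), showed a small but separate difference. Its level was 30, 31.8 and 30.9 CPM on NCD and 32.8, 33.7 and 37.1 CPM on HFD. The HFD libraries were all higher, and the lowest of them exceeded the highest NCD library by a small margin. The log2 fold change was 0.16 (SE 0.12).

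The receptors through which growth factors reach the endothelium did not separate by diet. Flt1 and Kdr encode the receptors 1 and 2 of vascular endothelial growth factor. Flt1 stood at 34.7, 29.3 and 33.1 CPM on NCD and at 41, 37.3 and 25.2 CPM on HFD. The highest and the lowest library of Flt1 were both HFD libraries, and the log2 fold change was 0.09 (SE 0.16). Kdr stood at 10.5, 8.41 and 9.59 CPM on NCD and at 12.7, 11.8 and 9.35 CPM on HFD, with a log2 fold change of 0.25 (SE 0.20). HFD replicates 1 and 2 exceeded every NCD library in both genes and HFD replicate 3 did not. Tek and Tie1, the receptor of angiopoietins and its partner, had log2 fold changes of 0.30 (SE 0.34) and 0.33 (SE 0.33), Eng, a co-receptor of the TGF-beta family, 0.19 (SE 0.24), and Ramp2, the partner of the adrenomedullin receptor, 0.24 (SE 0.18). Their diets overlapped.

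Pecam1 and Cdh5 join endothelial cells to each other. Pecam1, an immunoglobulin-like molecule of the cell contacts, stood at 8.02, 7.23 and 10.3 CPM on NCD and at 13, 13.2 and 8.52 CPM on HFD, with means of 8.52 ± 1.61 and 11.6 ± 2.64 CPM (SD, n = 3 each). HFD replicates 1 and 2 were above all NCD libraries, and HFD replicate 3 lay among them. The log2 fold change of Pecam1 was 0.44 (SE 0.22), short of the threshold. It was 0.62 without HFD replicate 3 and 0.61 without NCD replicate 3, and reached the threshold in both of these fits. Without NCD replicate 1 or 2, or without HFD replicate 1 or 2, it was between 0.33 and 0.40 and did not reach it.

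Cdh5, the VE-cadherin of the adherens junction, showed the same order of the HFD libraries at a lower level. It stood at 5.18, 5.18 and 5.48 CPM on NCD and at 5.76, 6.99 and 3.57 CPM on HFD, a log2 fold change of 0.05 (SE 0.28). The NCD libraries of Cdh5 were close to each other (SD 0.172 CPM) and the HFD libraries spread widely around them (SD 1.73 CPM). Icam2, a ligand of leukocyte integrins that resting endothelium displays, stood at 1.97, 3.02 and 1.9 CPM on NCD and at 2.59, 1.86 and 1.92 CPM on HFD, with between 14 and 28 counts per library and a log2 fold change of -0.12 (SE 0.39). The other surface members (Esam, Cd34, Emcn, Podxl and Robo4) had log2 fold changes between -0.14 and 0.32 and overlapped between the diets.

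In the group of the barrier itself, the tight junction gene Cldn5 and the lipid carrier Mfsd2a had differences of opposite sign. Mfsd2a carries lysophospholipids with docosahexaenoic acid into the brain, and it is known for keeping vesicle traffic across the endothelium low. Its gene lies at chr4:122946850-122961188 (minus strand), next to the sequence printed above. Mfsd2a stood at 24.3, 26.6 and 24.4 CPM on NCD and at 18.6, 20 and 15.8 CPM on HFD. All HFD libraries were below all NCD libraries, with 197 to 247 counts on NCD and 115 to 183 on HFD. The means were 25.1 ± 1.31 and 18.1 ± 2.13 CPM (SD, n = 3 each), a 1.38-fold lower level on HFD. The log2 fold change of Mfsd2a was -0.47 (SE 0.15), and its unadjusted p ranked 38 among all genes tested and first among the members.

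Cldn5 is the main claudin that seals the brain endothelium. It stood at 8.27, 7.98 and 7.27 CPM on NCD and at 10.2, 9.62 and 9.35 CPM on HFD, from 67 to 88 counts per library. Each HFD library was above each NCD library. The means of Cldn5 were 7.84 ± 0.515 and 9.73 ± 0.447 CPM (SD, n = 3 each), a 1.24-fold higher level, and the log2 fold change of 0.31 (SE 0.20) did not reach the threshold in edgeR. With quantile normalization and limma it was 0.30 and reached it, the only 1 of 16 alternatives in which it did.

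The other 4 genes of this group overlapped between the diets. Ocln and Tjp1 encode occludin and its scaffold ZO-1, and Tjp1 is also made outside vessels. Their log2 fold changes were 0.19 (SE 0.46) and 0.09 (SE 0.15), and the Ocln estimate rests on only 10 to 35 counts per library. Slco1a4 and Slco1c1, organic anion carriers that pass bile acids, steroid conjugates and thyroid hormone, were among the steadiest of all members. Slco1a4 stood at 39.5, 41.5 and 41.8 CPM on NCD and at 40.7, 40.3 and 37.8 CPM on HFD, with a log2 fold change of -0.05 (SE 0.12), and that of Slco1c1 was also -0.05 (SE 0.12). Of the barrier carriers of lipids and organic anions measured here, Mfsd2a thus had non-overlapping libraries and these 2 did not.

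Of the 3 endothelial transcription factors, Sox17 was lower on HFD. SOX17 belongs to the SoxF factors, which direct arterial identity and the growth of brain vessels. The gene lies at chr1:4490931-4497354 (minus strand), and its exons overlap Gm37587 on the other strand. Sox17 stood at 8.39, 5.82 and 6.53 CPM on NCD and at 4.75, 4.59 and 4.54 CPM on HFD, which is 54 to 68 counts against 33 to 42. All 3 HFD libraries were lower, and they were nearly equal to each other, while the NCD libraries spread more. The means were 6.92 ± 1.33 and 4.63 ± 0.111 CPM (SD, n = 3 each), a 1.49-fold lower level, with a log2 fold change of -0.58 (SE 0.26). It was -0.42 without NCD replicate 1 and between -0.59 and -0.56 without HFD replicate 1, 2 or 3, and in these 4 fits Sox17 did not reach the threshold.

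Sox18, the SoxF relative of Sox17, had a log2 fold change of -0.10 (SE 0.27), and Erg, an ETS factor of mature endothelium, one of 0.18 (SE 0.37). Both overlapped between the diets. The 4 secreted factors and enzymes also overlapped. Vwf, the von Willebrand factor of platelet adhesion, had a log2 fold change of -0.32 (SE 0.37), Nos3, the endothelial nitric oxide synthase, -0.27 (SE 0.31), Edn1, the vasoconstrictor endothelin 1, -0.09 (SE 0.32), and Igfbp7, a secreted binding protein of insulin-like growth factors, 0.06 (SE 0.16). In Vwf and Nos3 HFD replicate 3 was the lowest library by far, at 1.51 and 2.61 CPM, where the other 5 libraries held 3.45 to 4.57 and 5.35 to 7.05 CPM.

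**Figure D2:**
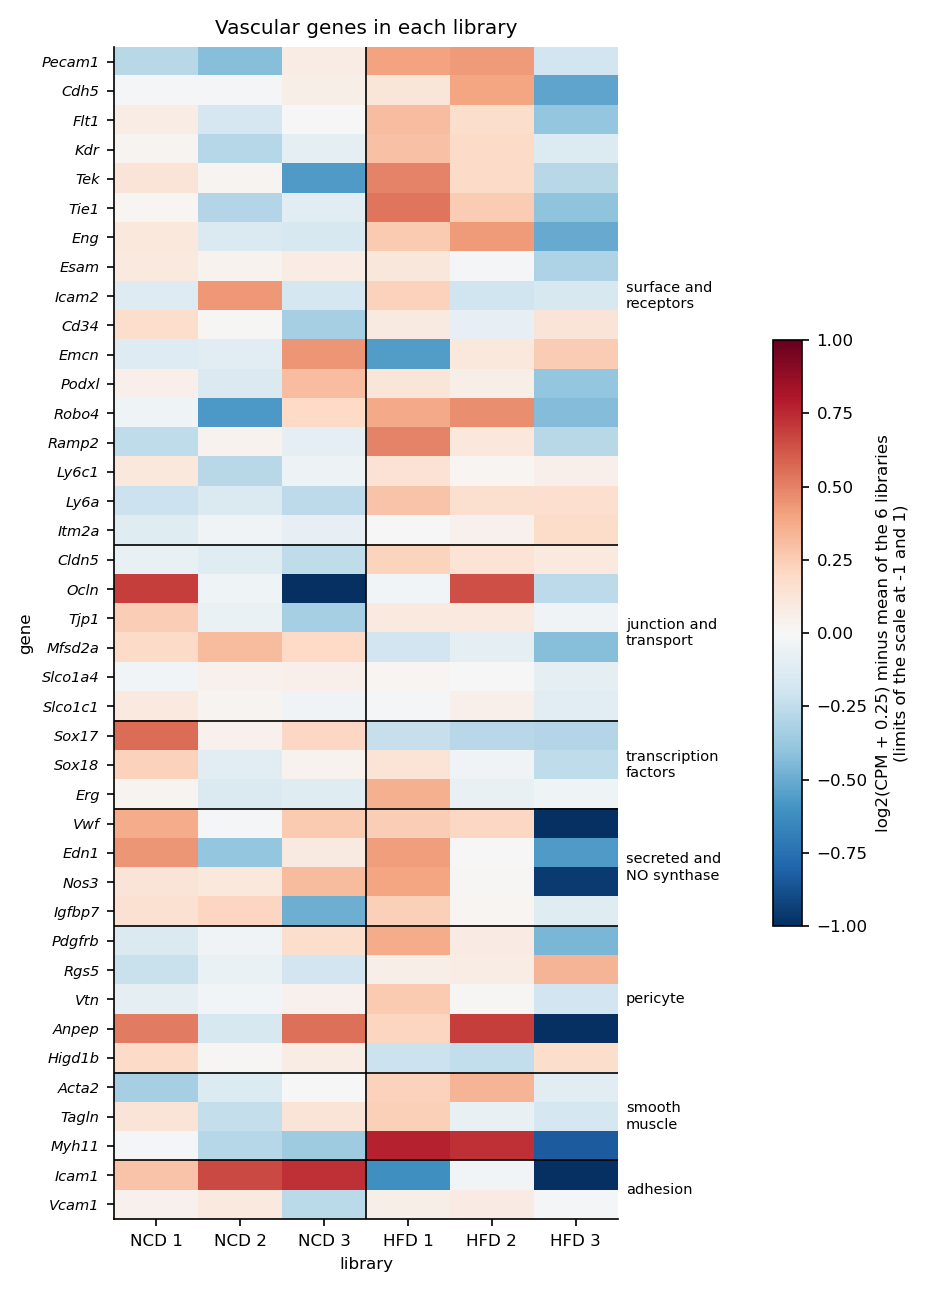
Level of the 40 vessel genes tested (rows, ordered by role) in the 6 libraries (columns), as the difference of log2 CPM from the mean of each gene over the libraries, with the colour scale in log2 units. HFD replicate 1 is high and HFD replicate 3 low for much of the list, and Mfsd2a, Sox17 and Icam1 are low in all HFD libraries.

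Among the 5 pericyte genes, Rgs5 was higher on HFD. It encodes a regulator of G-protein signalling that is one of the strongest markers of brain pericytes, and its gene lies at chr1:169655501-169695813 (plus strand). Rgs5 stood at 19.6, 21.9 and 20 CPM on NCD and at 23.9, 24.1 and 29.1 CPM on HFD. All HFD libraries were above all NCD libraries, and HFD replicate 3, in which many other vessel genes were low, was the highest. The means were 20.5 ± 1.21 and 25.7 ± 2.96 CPM (SD, n = 3 each), 1.25-fold higher on HFD, with a log2 fold change of 0.32 (SE 0.14). It was 0.30 without NCD replicate 1, 0.31 without NCD replicate 3 and 0.23 without HFD replicate 3, and in these 3 fits Rgs5 did not reach the threshold.

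The rest of the pericyte genes did not share the pattern of Rgs5. Pdgfrb, the receptor of the growth factor that recruits pericytes to endothelium, stood at 8.27, 8.95 and 10.4 CPM on NCD and at 11.9, 9.73 and 6.6 CPM on HFD. The highest and the lowest library of Pdgfrb were HFD libraries, and the log2 fold change was 0.03 (SE 0.23). Vtn, the extracellular protein vitronectin, stood at 28.1, 29.6 and 31 CPM on NCD and at 36.1, 30.4 and 26.4 CPM on HFD, a log2 fold change of 0.07 (SE 0.14). Anpep, an aminopeptidase of the pericyte surface, had 17 to 30 counts on NCD and 17, 32 and 3 counts on HFD, so HFD replicate 3 was at the floor, and its log2 fold change was -0.31 (SE 0.51). Higd1b, a mitochondrial protein found in pericytes, had one of -0.19 (SE 0.34).

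The 3 genes of arterial smooth muscle encode contractile proteins, and none separated by diet. Acta2, smooth muscle actin, stood at 6.54, 7.55 and 8.32 CPM on NCD and at 9.79, 10.6 and 7.7 CPM on HFD, a log2 fold change of 0.33 (SE 0.22). Tagln, the actin-binding protein transgelin, stood at 10.1, 7.77 and 10.1 CPM on NCD and at 10.9, 8.74 and 8.11 CPM on HFD, a log2 fold change of -0.01 (SE 0.21). Myh11, the smooth muscle myosin heavy chain, stood at 4.07, 3.34 and 3.16 CPM on NCD and at 7.2, 6.99 and 2.2 CPM on HFD. Levels of Myh11 in HFD replicates 1 and 2 were above every NCD library and that of HFD replicate 3 was below every one. The log2 fold change of Myh11 was 0.64 (SE 0.37), the highest of the members. It did not reach the threshold, and without HFD replicate 3 it was 1.01 and did. Without HFD replicate 1 or HFD replicate 2 it was 0.41, and with quantile normalization and limma 0.40. Myh11 did not reach the threshold in these fits.

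Of the 4 inducible adhesion genes, Icam1 was lower on HFD and Vcam1 did not differ beyond its spread. ICAM-1 on the endothelium binds the beta-2 integrins of leukocytes, and its gene lies at chr9:21015985-21028817 (plus strand), where exons overlap Gm47079 on the other strand. Icam1 had 17, 26 and 28 counts on NCD and 7, 15 and 5 counts on HFD, or 2.1, 2.8 and 2.95 CPM against 1.01, 1.64 and 0.687 CPM. The HFD libraries were all below the NCD libraries, at counts not far above the floor. The means were 2.62 ± 0.455 and 1.11 ± 0.484 CPM (SD, n = 3 each), a 2.29-fold lower level, and the log2 fold change of -1.20 (SE 0.44) was the lowest of the members. Icam1 met the filter of 1.17 CPM in 3 libraries through the NCD libraries, since 2 of its 3 HFD libraries were under it. It was not tested where 10 counts were asked of every library, and its log2 fold change, -1.13 without HFD replicate 1 and -0.96 without HFD replicate 3, did not reach the threshold in those fits.

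Vcam1, which binds the integrin alpha-4 beta-1 of lymphocytes and monocytes, stood at 27.3, 28.4 and 22 CPM on NCD and at 27.6, 28.1 and 26.3 CPM on HFD, a log2 fold change of 0.08 (SE 0.14). The selectins, on which leukocytes roll, were hardly detected. Sele had 1, 2 and 0 counts on NCD and 0, 2 and 8 on HFD, and Selp had 0 counts in 5 libraries and 2 in HFD replicate 2. Apart from the 8 counts of Sele in HFD replicate 3, these values were at or under the floor of 3 counts, and no fold is given. The genes of the 2 selectins lie 57.6 kb apart on chromosome 1.

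The members lay on 16 chromosomes, and 5 pairs were less than 500 kb apart: the selectins, Ly6a with Ly6c1, Robo4 with Esam (113 kb, log2 fold changes 0.32 and -0.13), Slco1c1 with Slco1a4 (235 kb, both -0.05), and Icam2 with Pecam1 (266 kb, -0.12 and 0.44). Exons of 10 members overlap a gene on the other strand and those of 1, Ramp2, a gene on the same strand (Vps25). Whether the counting used strand is not given in the sources used here, so reads in the overlapping stretches cannot be told apart from those of the partner genes. How much of each count this concerns was not measured.

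**Figure D3:**
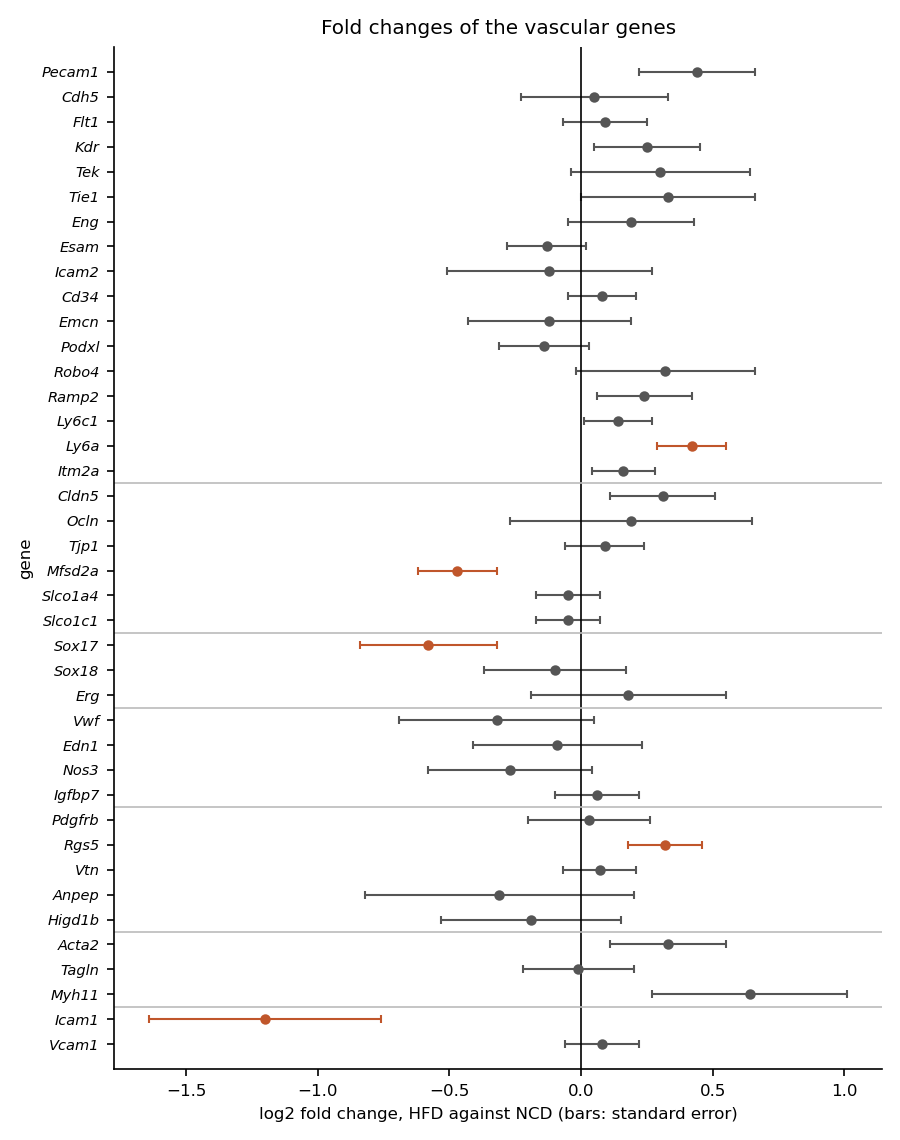
Log2 fold change (HFD over NCD, x axis) with its standard error for the 40 vessel genes tested, grouped by role. Genes with an unadjusted p under 0.05 (Ly6a and Rgs5 higher, Mfsd2a, Sox17 and Icam1 lower) are marked, and most bars cross 0.

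Endothelial and mural genes were compared as groups by their summed levels. The endothelial sum was 558 ± 37.5 CPM on NCD and 579 ± 50 CPM on HFD (SD, n = 3 each), and the mural sum was 85.4 ± 3.32 and 95 ± 10.5 CPM. Within the mural group the pericyte genes summed to 65.1 ± 2.59 and 71 ± 5.55 CPM and the smooth muscle genes to 20.3 ± 1.51 and 24.1 ± 5.33 CPM. The ratio of the endothelial to the mural sum was 7.17, 6.61 and 5.85 on NCD and 5.96, 6.08 and 6.27 on HFD. The HFD ratios lay within the range of the NCD ratios. On the log2 scale the ratio was 2.71 ± 0.148 on NCD and 2.61 ± 0.0364 on HFD, a difference of -0.10 that is smaller than the pooled SD between libraries of 0.11. The difference was -0.03 without NCD replicate 1 and -0.17 without NCD replicate 3, the library with the lowest ratio. With mean log2 CPM in place of summed CPM, endothelial minus mural was 0.589, 0.549 and 0.39 on NCD. On HFD it was 0.442, 0.418 and 0.637, so HFD replicate 3 lay above every NCD library. The difference between the diets was then -0.01. By single genes, the log2 fold changes had a median of 0.09 over the 30 endothelial members and of 0.05 over the 8 mural members.

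**Figure D4:**
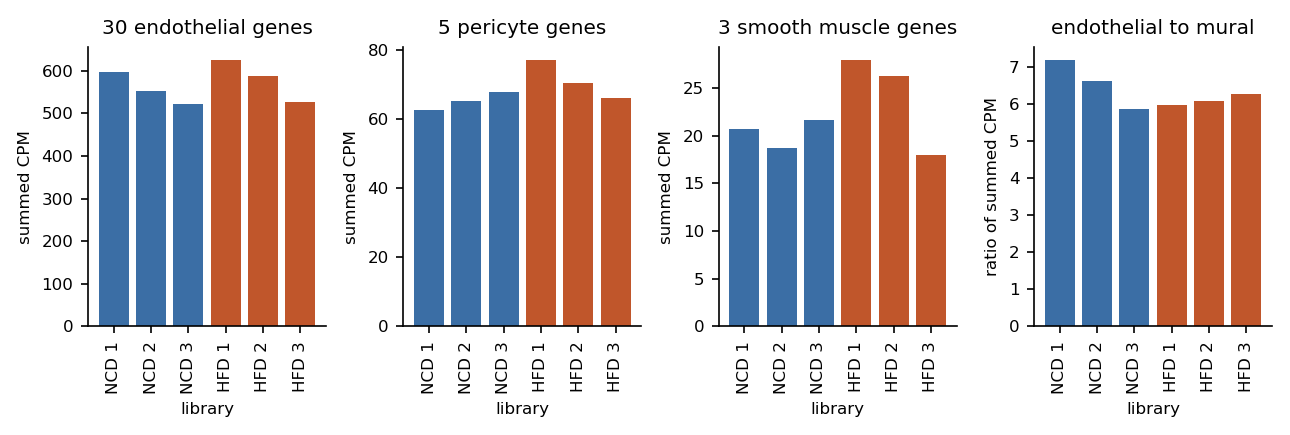
Summed level (CPM) of the endothelial, pericyte and smooth muscle genes in each library, and the ratio of the endothelial to the mural sum, 1 bar per library. The libraries of the diets overlap in every panel. HFD replicate 1 is the highest and HFD replicate 3 the lowest within HFD for the endothelial, pericyte and smooth muscle sums.

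Vessel genes differed also between libraries of the same diet. HFD replicate 3 held the lowest level of 20 of the 40 members tested (50%), where it held the lowest of 27.1% of all genes tested, and HFD replicate 1 held the highest level of 16 (40%), against 14.6% of all genes. Both cell groups took part: HFD replicate 3 was the lowest for 15 of 30 endothelial and 4 of 8 mural members, and HFD replicate 1 was the highest for 12 and 4. The median deviation of the members from their own means was 0.225 in HFD replicate 1, 0.0786 in HFD replicate 2 and -0.225 in HFD replicate 3 on the log2 scale. In the NCD libraries it was 0.0594, -0.0573 and 0.00249. The vessel genes as a list were thus spread more widely over the HFD than over the NCD libraries.

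Without HFD replicate 3, which also held the pituitary RNA and the highest level of red blood cell genes, 6 of the 40 members had a p under 0.05, against 3.17% of all genes tested. Ly6a and Mfsd2a remained and Sox17, Rgs5 and Icam1 did not. The others were Pecam1 and Myh11, as given above, Flt1 with a log2 fold change of 0.27 and Ramp2 with 0.41. In that fit 30 members had a log2 fold change above 0 and 10 below, and the median was 0.14. Without HFD replicate 1 the numbers were 21 and 19, and the median was 0.02. In that fit 3 of the 40 members had a p under 0.05, against 5.46% of all genes tested. Leaving out HFD replicate 3 and leaving out HFD replicate 1 thus shifted the same list in opposite directions. HFD replicate 3 was low and HFD replicate 1 high for much of the list, so these shifts follow from the same levels. They are no separate result.

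The GC content of the last 500 transcript bases was set beside the deviation of each gene. In HFD replicate 3 the median deviation was 0.08 over the genes with the lowest GC (20% of genes, up to 38.9%) and -0.09 over those with the highest (20%, from 53.2%), and in NCD replicate 3 it was -0.07 and 0.06. In HFD replicate 1, where the members were highest, it was -0.02 and 0.03. Of the 40 members, 8 were in the lowest and 7 in the highest of these classes. Over the 40 members the Spearman correlation of GC content with the deviation was 0.01, 0.13 and 0.29 in NCD replicates 1 to 3. In HFD replicates 1 to 3 it was 0.11, -0.15 and -0.33. The ribosomal RNA entry Rn45s took 6.18, 5.62 and 7.35 percent of the counts on NCD and 5.55, 6.99 and 8.75 percent on HFD. The part of GC content, ribosomal RNA, blood, pituitary RNA and liver RNA in the levels of the vessel genes was not tested.

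**Figure D5:**
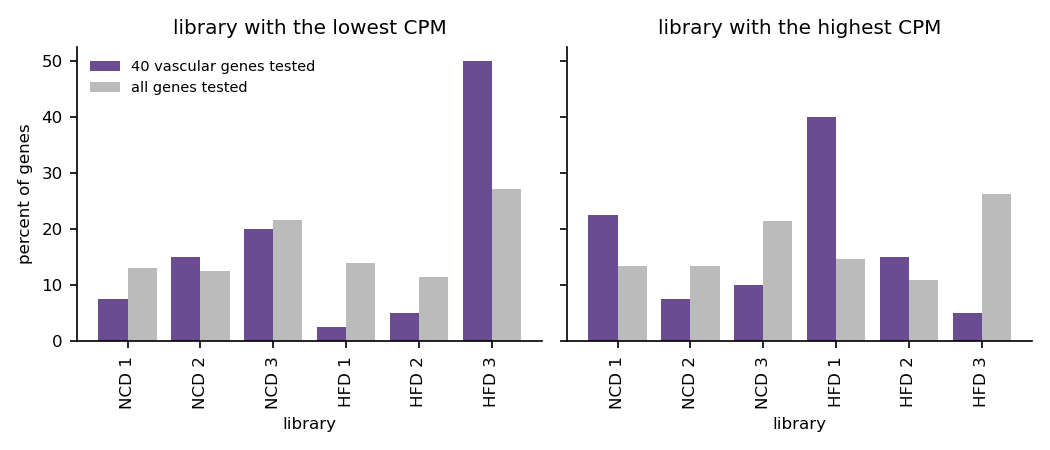
Percent of genes whose lowest (left) or highest (right) level fell in each library, for the 40 vessel genes tested and for all 13771 genes tested. HFD replicate 3 held the lowest level of 50% of the vessel genes and HFD replicate 1 the highest of 40%, against 27.1% and 14.6% of all genes.

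Other genes of the vessel pathways, on 7 lists with 131 genes, gave a share of calls close to that of all genes: of the 108 tested, 2 were higher and 3 lower on HFD with a p under 0.05 (4.63%, against 3.68% of all genes). Of these 5, 4 belong to the Wnt pathway that induces and maintains the barrier, of which 14 of 16 genes were tested. Wnt7b, a ligand made by neural cells that acts on brain endothelium, was 24 ± 1.16 CPM on NCD and 19 ± 2.31 CPM on HFD (SD, n = 3 each), with a log2 fold change of -0.33 (SE 0.15). Fzd6, a frizzled receptor, was 6.95 ± 0.281 and 4.55 ± 0.881 CPM, with a log2 fold change of -0.61 (SE 0.25). The libraries of the diets did not overlap in either gene. Wnt7b did not reach the threshold with DESeq2 or with the replicate number as a block, nor without NCD replicate 1 or 3 or without HFD replicate 1 or 3 (log2 fold changes -0.32 to -0.27), and Fzd6 without NCD replicate 2 or without HFD replicate 2 or 3 (-0.60 to -0.49).

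The other 2 Wnt genes were higher. Ndp, which encodes the ligand norrin, was 6.88 ± 0.304 CPM on NCD and 9.68 ± 1.44 CPM on HFD (SD, n = 3 each), with a log2 fold change of 0.50 (SE 0.21) and no overlap. Lrp5, the co-receptor of norrin and Wnt ligands, had 8, 12 and 7 counts on NCD and 20, 11 and 17 on HFD, which overlap, with a log2 fold change of 1.05 (SE 0.49). The median over the Wnt list was 0.05, with 7 genes above and 7 below 0. Ndp did not reach the threshold with DESeq2, nor without NCD replicate 1 or 3 or without HFD replicate 2 or 3 (0.41 to 0.48), and Lrp5 did not without NCD replicate 1 or 3 or without HFD replicate 1 or 3 (0.79 to 1.04). Lrp5 passed the filter through the HFD libraries, in which it was higher, since 2 of its 3 NCD libraries were under 1.17 CPM. It was not tested where 10 counts were asked of every library, and it reached the threshold in 7 of 15 alternatives, not with library size alone, DESeq2, no filter or the block.

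Foxo1, a transcription factor that restrains endothelial growth and is also made in neurons, was the only call among 16 other endothelial transcription factors. It was 45.1 ± 2.4 CPM on NCD and 36.4 ± 5.12 CPM on HFD (SD, n = 3 each), with a log2 fold change of -0.31 (SE 0.13), and its libraries did not overlap. It was -0.28 to -0.19 without NCD replicate 1 or 3 or without HFD replicate 3, and Foxo1 then did not reach the threshold, nor with quantile normalization and limma (-0.30). Beside Icam1, 0 of 7 leukocyte partners of the adhesion molecules and 0 of 13 genes of the NF-kappaB response, which induces Icam1 and the selectins in inflammation, had a p under 0.05, with medians of -0.05 and 0.09. Of these lists 4 and 7 further genes were under the count filter. The same count was 0 of 24 for angiogenic ligands and other vascular receptors (median -0.01), 0 of 18 for other barrier transporters and junction genes (median -0.08) and 0 of 16 for other mural genes (median 0.03).

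Markers of the other cells in the tissue were set beside the vessel genes. The meninges and perivascular fibroblasts, which sit on larger vessels, summed to 2511, 2828 and 2247 CPM on NCD and to 2925, 2766 and 2131 CPM on HFD, with 0 of 12 genes called. This sum too was highest in HFD replicate 1 and lowest in HFD replicate 3, and its part in the vessel levels was not tested. Microglia summed to between 431 and 464 CPM, astrocytes to between 5180 and 5600 CPM and neurons to between 10303 and 12020 CPM, with 0 of 12, 0 of 10 and 0 of 10 genes called. Choroid plexus had 1 of 9 genes called, Kcnj13, which was higher.

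Blood genes were higher on HFD, as Ly6a and Rgs5 were. Of 7 red blood cell genes tested, 6 had a p under 0.05 (85.7%, against 3.68% of all genes) and were higher on HFD. Log2 fold changes lay between 0.49 and 0.71 over the 7. The diets did not overlap in 3 of them (42.9%, against 8.81% of all genes). These were Hba-a1, with a log2 fold change of 0.49 (SE 0.13), Hbb-bt with 0.68 (SE 0.15) and Hbb-b2 with 0.71 (SE 0.15). Near-identical globin copies share reads. Of the liver markers, 5 of the 6 tested had a p under 0.05 (83.3%) and were lower, with a median log2 fold change of -1.71 over the 6. The diets did not overlap in 2 of the 6 (33.3%), Ahsg and Fgb. Both passed the filter through the NCD libraries, in which they were higher. The summed level of the liver markers was 318 ± 20 CPM on NCD and 284 ± 23 CPM on HFD (SD, n = 3 each). The part of blood in the levels of Ly6a, Rgs5, Mfsd2a, Sox17 and Icam1 was not tested.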

How the data were processed

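Total RNA of the forebrain hemispheres was extracted with Trizol, and QuantSeq 3′ libraries, which read near the poly(A) end of a transcript, were sequenced in single reads of 75 bases. The authors trimmed these reads, mapped them with Bowtie2 to the mouse genome build mm10 and counted unique and multiple alignments per gene with Bedtools coverage. The deposited values are these read counts, whole numbers without the quantile normalization that the methods describe. Tool versions, the annotation and the use of strand are not given in the sources used here. Of the entries, 79 share a symbol and were kept apart, 0 of them members, and 4346 had no count in any library.

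Differences between the diets were fitted with edgeR 4.0.16 (R 4.3.3). The filter filterByExpr (minimum count 10, minimum total count 15) kept 13771 genes, libraries were normalized with TMM, and glmQLFit and glmQLFTest compared 3 HFD with 3 NCD libraries, two-sided, with Benjamini-Hochberg adjustment over all genes tested. The common biological coefficient of variation was 0.126. Standard errors were derived from the F statistic (absolute log2 fold change over its root). The code was checked on simulated counts. The floor of 3 counts covers counting error only. Positions and exon overlaps are from GENCODE vM21 (GRCm38), and figures were drawn with matplotlib 3.10.9.

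The members and all lists (7 of vessel pathways, 8 of other cells) were chosen with earlier results of these data known. Values in every library are given for 16 anchor genes, for members with a p under 0.05, under the filter or without overlap between the diets, and the others by range. Of the other lists, genes with a p under 0.05 are named. Alternatives were other normalizations, DESeq2 1.42.0, quantile normalization with limma 3.58.1, other filters, a robust dispersion, the replicate number as a block, and leaving out single libraries.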

Additional observations from a re-analysis of the deposited data

How the results depend on the processing

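Over all alternatives run, 0 members had an adjusted p under 0.05 in edgeR, limma or DESeq2, although 23 genes in all passed without a filter. The number of members with an unadjusted p under 0.05, 5 as reported, was 3 with DESeq2, 6 with quantile normalization and limma (Cldn5 was added), 7 without a filter (Pecam1 and Myh11 were added), and 3 to 6 when single libraries were left out. The share of all genes called moved as well. It was 3.68% as reported, 2.72% with DESeq2, 4.26% with quantile normalization and limma, and 4.76% without a filter. When single libraries were left out this share was between 2.95% and 5.46%. Ly6a and Mfsd2a had a p under 0.05 in all 16 alternatives, with log2 fold changes of 0.38 to 0.45 and -0.55 to -0.38 when single libraries were left out, Icam1 in 13 of the 15 that tested it, Sox17 in 11 of 16 and Rgs5 in 10 of 16. Sox17 and Rgs5 lost theirs with DESeq2, and Rgs5 also with library size alone. The replicate numbers do not pair the libraries: same-numbered NCD and HFD libraries had correlations of their deviations of -0.03, 0.05 and -0.06, and not every library correlated best with its own number. With the replicate block, 4 members had a p under 0.05, without Rgs5, against 2.69% of all genes tested.

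Among the members without a call, the sign changed with the libraries kept in 18. Tagln was 0.00 with quantile normalization. When single libraries were left out, log2 fold changes ranged from -0.18 to 0.28 for Cdh5, -0.04 to 0.27 for Flt1, -0.01 to 0.42 for Eng, -0.28 to 0.13 for Icam2, -0.05 to 0.20 for Cd34, -0.28 to 0.11 for Emcn, -0.24 to 0.00 for Podxl, -0.18 to 0.71 for Ocln, -0.04 to 0.25 for Tjp1, -0.52 to 0.01 for Vwf, -0.34 to 0.14 for Edn1, -0.58 to 0.02 for Nos3, -0.13 to 0.19 for Igfbp7, -0.17 to 0.22 for Pdgfrb, -0.06 to 0.16 for Vtn, -0.92 to 0.16 for Anpep, -0.14 to 0.07 for Tagln and -0.03 to 0.15 for Vcam1. The cause was not tested. The vessel genes were counted at low depth, and 17 of the 40 members tested had a mean count under 50. The standard error of a log2 fold change was 0.39 for Icam2 and 0.12 for Itm2a.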
